A study of Mus musculus with 20 samples.

Results

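Expression of 10 genes that release arachidonate, turn it into prostaglandin E and remove the products was described in granulosa cells (GCs) of 2 mouse lines. The genes were taken by name from a list of 10, and all 10 were found among the 55487 gene identifiers of the count tables. They are Pla2g4a and Pla2g12a (release), Acsl4 (reacylation), Ptgs1, Ptges and Ptges3 (synthesis), Slco2a1 (uptake), Hpgd and Ptgr1 (inactivation) and Ephx2 (hydrolysis of epoxides).

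GCs came from 20 mice, 5 for each combination of line and stage. The FL1 line was bred for high fertility and the Dummerstorf ctrl line was kept without selection, and the lines share their ancestors. Mice were 77 ± 5 days old, no treatment is named in the labels, and the stage was read from vaginal smears, with only cornified cells in estrus and only leucocytes in diestrus. From each mouse 7 to 10 of the largest follicles were opened, and the GCs gave 1 library. The paper reports care to leave out the oocyte with its cumulus. The lines are different populations and not carriers of a single allele, so a line difference cannot be assigned to a single gene. Between 5446576 and 8257041 reads per mouse were counted on genes. In bulk RNA of this kind, fewer cells of a type and less RNA per cell cannot be told apart.

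Arachidonate is held in membrane phospholipids. Phospholipases A cut it free, acyl-CoA synthetases tie it to coenzyme A so that it can be put back, and cyclooxygenases turn the free acid into the precursor of the prostaglandins. Prostaglandin E synthases finish the best known ovarian product, which is needed for ovulation and cumulus expansion, while a transporter and the enzymes of the inactivation route end the signal. A side branch makes epoxides of arachidonate, which soluble epoxide hydrolase opens.

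Over both stages, Acsl4 and Pla2g4a were higher and Hpgd was lower in GCs of FL1 mice than in GCs of ctrl mice. Acsl4 codes for the ligase that couples arachidonate to coenzyme A, Pla2g4a for the cytosolic phospholipase A that prefers arachidonate, and Hpgd for the dehydrogenase that starts the breakdown of prostaglandins. In the fit of all 20 mice with stage as covariate, the log2 fold change (FL1 against ctrl) was 1.197 for Acsl4 (standard error, SE, 0.24, edgeR-adjusted p = 0.00499), 0.96 for Pla2g4a (SE 0.24, edgeR-adjusted p = 0.0392) and −1.79 for Hpgd (SE 0.31, edgeR-adjusted p = 0.00105). A gene is called here at an adjusted p of 0.05 or less over all genes tested. By this rule 3 of the 10 genes were called for the line, against 1.21% of all 14938 genes tested, and 4 of 10 had an unadjusted p under 0.05, against 11.0%. The median log2 fold change of the 10 genes was 0.26, against 0.0108 over all genes tested. Acsl4, Pla2g4a, Pla2g12a, Hpgd and Ephx2 also occur in gene lists that the study drew from these same samples, so their direction here is not independent evidence. The 10 genes were chosen with earlier results of these data known. A share of the 10 above that of all genes, in this or any other comparison, is therefore not independent evidence either.

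The calls of Acsl4 and Hpgd over both stages were kept in 20 of the 20 fits that left out 1 mouse, with adjusted p-values of 0.00282 to 0.0168 and of 7.04e-05 to 0.00312. Pla2g4a was closer to the threshold and was called in 9 of those 20 fits, with log2 fold changes of 0.84 to 1.02 and adjusted p-values of 0.0286 to 0.0830. It was called without ctrl estrus replicate 1, 2 or 5, ctrl diestrus replicate 2 or 5, FL1 estrus replicate 1 or 2, or FL1 diestrus replicate 2 or 3, and not without any other mouse.

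**Figure D1:**
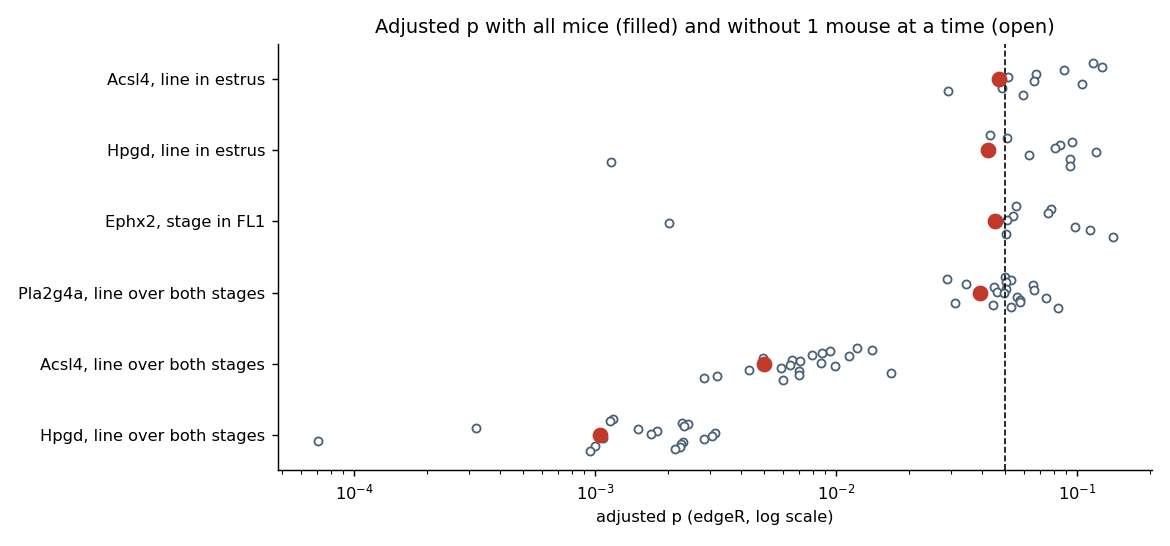
Adjusted p-values from edgeR (x axis, log scale) of the 6 differences that were called, with all mice (filled points) and with 1 mouse left out at a time (open points), and the threshold of 0.05 as a dashed line. For Acsl4 and Hpgd over both stages no open point crosses the threshold, with highest values of 0.0168 and 0.00312, while the other 4 differences lie close to it and have open points on both sides.

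Promoters of these 3 genes are printed to show the sequence in front of the genes that differed between the lines. They are the 250 bases before the start given by RefSeq on GRCm38.p6, on the strand of the gene, and 9 of the 10 genes had an entry. The RefSeq start of Hpgd lies 33 bases from the GENCODE start, and those of Acsl4 and Pla2g4a are the same in both. Letters in capitals mark matches, on either strand, to the 7 motifs searched, whose letters are given after the sequences.
Acsl4, chrX:142390536-142390785, minus strand: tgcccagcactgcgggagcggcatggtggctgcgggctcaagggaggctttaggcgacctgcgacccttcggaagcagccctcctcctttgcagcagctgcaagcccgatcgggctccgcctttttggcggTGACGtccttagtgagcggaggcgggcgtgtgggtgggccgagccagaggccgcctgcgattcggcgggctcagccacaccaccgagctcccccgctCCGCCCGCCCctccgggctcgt
Pla2g4a, chr1:149961291-149961540, minus strand: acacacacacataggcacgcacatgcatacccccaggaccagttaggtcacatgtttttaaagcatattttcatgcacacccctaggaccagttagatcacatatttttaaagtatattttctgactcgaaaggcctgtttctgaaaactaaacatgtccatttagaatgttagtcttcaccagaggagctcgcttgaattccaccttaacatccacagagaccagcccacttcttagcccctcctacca
Hpgd, chr8:56294302-56294551, plus strand: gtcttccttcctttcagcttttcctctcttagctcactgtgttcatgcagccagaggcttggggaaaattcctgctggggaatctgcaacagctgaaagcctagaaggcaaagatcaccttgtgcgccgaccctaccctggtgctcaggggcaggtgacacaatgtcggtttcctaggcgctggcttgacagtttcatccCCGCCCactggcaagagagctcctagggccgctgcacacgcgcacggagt
The Acsl4 window held 1 CRE core (TGACG), 119 bases before the start, and 2 overlapping GC boxes (GGGCGG, read as CCGCCC on this strand), 22 and 18 bases before it. The Hpgd window held 1 GC box, 50 bases before the start, and the Pla2g4a window held none of the 7 motifs. Of all 32851 promoter windows of this length, 17.8% held the CRE core and 32.7% the GC box. The full CRE (TGACGTCA), which contains the core, stood in 1.55% of the windows. The NR5A motif (AAGGTCA) stood in 4.08% and the FOX motif (TGTTTAC) in 3.17% of them. The TATA box (TATAAA) stood in 12.4% and the CCAAT box (its own letters) in 33.8%. The share of G and C was 70.8% for Acsl4, 56.8% for Hpgd and 43.2% for Pla2g4a, with a median of 52.4% over all windows. A match describes letters only, and binding was not measured.

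Levels are given as CPM, the count per 1000000 reads on genes after scaling by the TMM method. The libraries read only the 3′ end of each transcript, so a count does not grow with transcript length. Other properties of a gene that change its count were not checked, so the order of the genes below is approximate. Ephx2 had the highest mean level over the 20 mice with 386 CPM, followed by Ptges with 158, Acsl4 with 121, Ptges3 with 108.3, Hpgd with 87.3, Pla2g12a with 73.0, Pla2g4a with 55.8 and Ptgr1 with 40.0 CPM. Slco2a1 with 7.96 CPM and Ptgs1 with 4.47 CPM were the lowest of the 10, and Ptgs1 had no read in 4 of 20 mice. The ranges over the mice overlapped between every pair of neighbours in this order. The order also changed between groups. In FL1 mice the mean of Acsl4 (225 CPM) was above that of Ptges (143 CPM) in estrus, and that of Ptges (196 CPM) above that of Ephx2 (174 CPM) in diestrus. Mice of a group were most alike for Ptges3, with a coefficient of variation of 22.9% averaged over the 4 groups, and least alike for Ptgs1, with 88.6%.

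**Figure D2:**
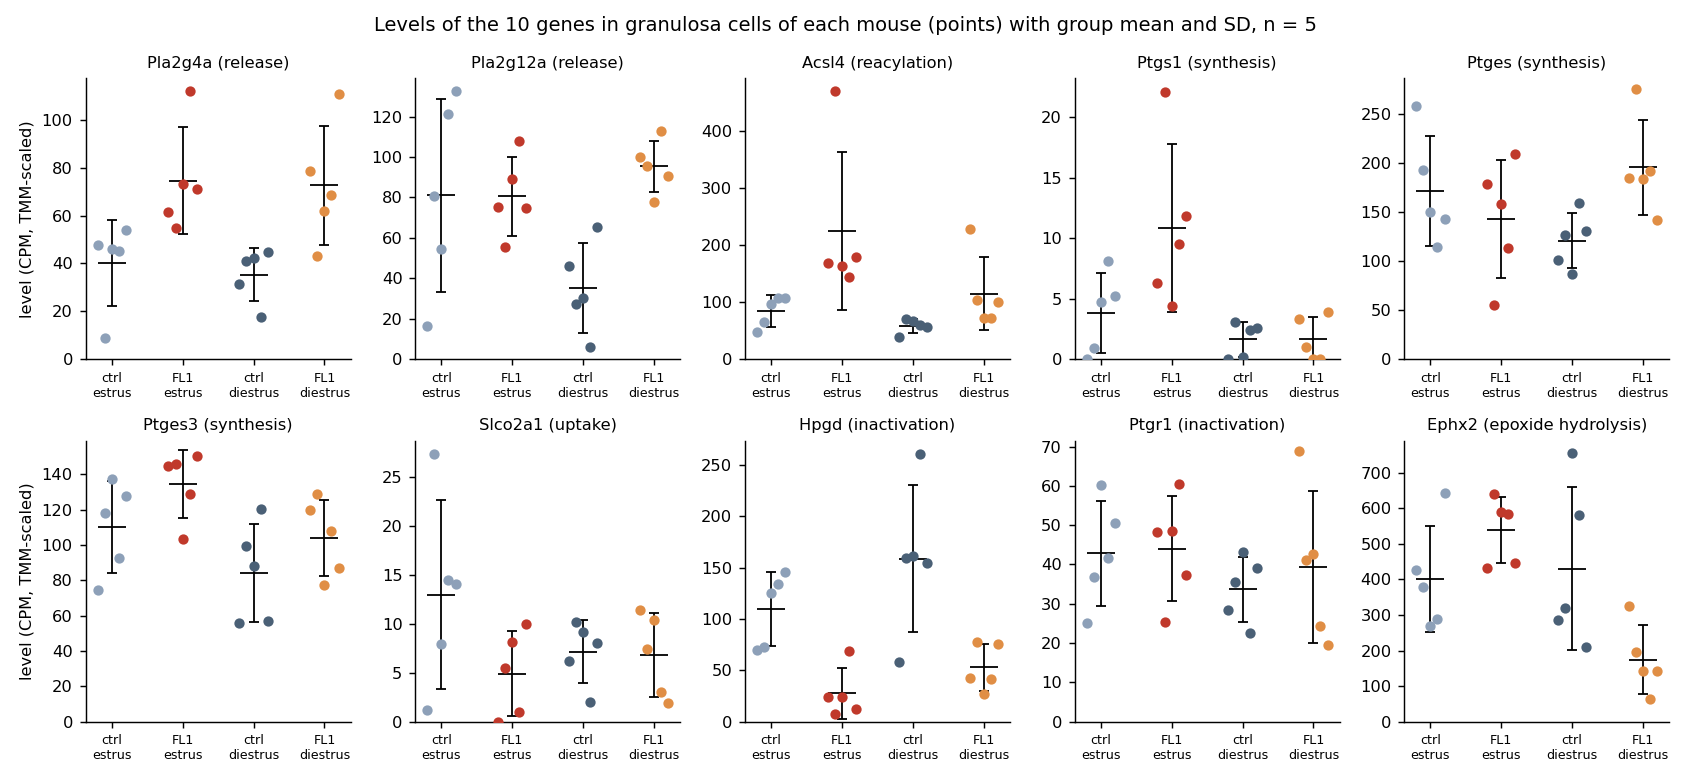
Level in CPM (y axes, each from 0) of the 10 genes in each of the 20 mice (points), by line and stage, with the mean and SD of the 5 mice of a group (bars). FL1 mice lie above ctrl mice for Acsl4 and below them for Hpgd in estrus, and Ephx2 is lowest in FL1 mice in diestrus, with a mean of 174 CPM.

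Pla2g4a, on chromosome 1 (149829618 to 149961290, GRCm38), had higher means in FL1 mice at either stage. In estrus the ctrl mice held 47.7, 8.84, 46.1, 45.1 and 54.0 CPM and the FL1 mice 61.5, 54.8, 73.3, 112.3 and 71.2 CPM. All 5 FL1 values were above every ctrl value, and ctrl replicate 2 stood far below the other ctrl mice. In diestrus the ctrl mice held 31.4, 41.1, 42.3, 17.4 and 44.6 CPM and the FL1 mice 78.9, 43.3, 61.9, 68.7 and 110.9 CPM. Here the lowest FL1 mouse lay below the highest ctrl mouse. Taken stage by stage the differences did not pass the adjustment, with log2 fold changes of 0.89 in estrus (SE 0.36, adjusted p = 0.338) and 1.04 in diestrus (SE 0.29, adjusted p = 0.344, both from edgeR). Between the stages Pla2g4a differed by −0.19 in ctrl and −0.05 in FL1 mice (log2, diestrus against estrus, edgeR-adjusted p = 0.923 and 0.985).

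Pla2g12a, a secreted phospholipase A on chromosome 3 (129878606 to 129895825), stood apart only among the diestrus mice. The ctrl mice held 16.5, 80.6, 54.6, 121 and 132.6 CPM in estrus and 46.2, 27.4, 30.3, 5.82 and 65.4 CPM in diestrus. The FL1 mice held 75.5, 55.5, 89.0, 108.1 and 74.8 CPM in estrus and 99.8, 95.6, 77.8, 112.8 and 90.6 CPM in diestrus. The lines overlapped fully in estrus, with means of 80.6 ± 19.4 CPM in FL1 and 81.1 ± 47.8 CPM in ctrl mice (SD, n = 5), while in diestrus every FL1 value was above every ctrl value. The log2 fold change in diestrus was 1.45 (SE 0.41), with an adjusted p of 0.344 from edgeR. The line by stage interaction, which is the line difference in diestrus minus that in estrus, was 1.45 (SE 0.60, unadjusted p = 0.0218, adjusted p = 0.999 from edgeR). A line effect that depends on stage was thus not shown.

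Acsl4, on the X chromosome (142317993 to 142390535), reached its highest levels in FL1 mice in estrus. Ctrl mice held 46.8, 64.2, 97.4, 106.6 and 107.1 CPM in estrus and 38.4, 71.1, 66.9, 59.4 and 56.1 CPM in diestrus. FL1 mice held 168, 471, 163, 144 and 178 CPM in estrus and 228, 103.02, 72.6, 71.6 and 99.96 CPM in diestrus. At each stage all 5 FL1 mice were above all 5 ctrl mice, but in diestrus the lowest FL1 mouse exceeded the highest ctrl mouse only narrowly. The mean was 225 ± 138 CPM in FL1 and 84.4 ± 27.4 CPM in ctrl mice in estrus, a 2.66-fold difference (log2 fold change 1.41, SE 0.32, edgeR-adjusted p = 0.0475). In diestrus the means were 115.05 ± 64.9 and 58.4 ± 12.6 CPM (SD, n = 5), with a log2 fold change of 0.99 (SE 0.30, edgeR-adjusted p = 0.446). The call in estrus was kept in 2 of the 10 fits without 1 mouse, those without FL1 replicate 3 or 4, and the adjusted p rose to between 0.0513 and 0.127 without any other mouse. Without FL1 replicate 2, the mouse with 471 CPM, the log2 fold change was 0.95 (edgeR-adjusted p = 0.105). The call in estrus was also lost with robust estimation (edgeR-adjusted p = 0.0710) and with the replicate number as a block (edgeR-adjusted p = 0.120). Between the stages Acsl4 differed by −0.54 in ctrl and −0.97 in FL1 mice on the log2 scale (diestrus against estrus, edgeR-adjusted p = 0.425 and 0.350), which missed the threshold. Without FL1 diestrus replicate 1, the value in FL1 mice was −1.39 (edgeR-adjusted p = 0.0402).

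The members of the synthesis step showed no called difference. Ptgs1, the constitutive cyclooxygenase on chromosome 2 (36230426 to 36252272), was low in all groups. It held 0, 0.930, 4.69, 8.10 and 5.19 CPM in ctrl mice in estrus and 0, 3.08, 0.133, 2.36 and 2.54 CPM in ctrl mice in diestrus. In FL1 mice it held 6.28, 22.1, 4.36, 9.54 and 11.9 CPM in estrus and 3.27, 0.959, 0, 0 and 3.92 CPM in diestrus. In FL1 mice all 5 estrus values were above all 5 diestrus values, yet the log2 fold change of −2.73 (diestrus against estrus, SE 1.04) had an adjusted p of 0.361 from edgeR. At these levels, from 0 to 177 counts per mouse, the error is wide.

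Ptgs2, the inducible cyclooxygenase that the ovulatory gonadotropin surge is known to switch on, had no read in 13 of 20 mice and at most 31 counts (4.83 CPM). In ctrl mice only 1 of 10 had reads, with 20 counts in estrus replicate 2. In FL1 mice, estrus replicates 1, 2, 3 and 5 had 2, 2, 31 and 19 counts, and diestrus replicates 3 and 4 had 20 and 17. Its log2 fold change for the line over both stages was 3.17 (SE 1.56, edgeR-adjusted p = 0.458), and it did not pass the filter on low counts in the fits of 10 mice. A difference between the lines was thus not called at these low counts.

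Ptges, the membrane-bound prostaglandin E synthase on chromosome 2 (30889471 to 30929863), was the most abundant gene of the synthesis step. Its mean was 172 ± 55.8 CPM in ctrl and 143 ± 60.02 CPM in FL1 mice in estrus, and 121 ± 28.1 CPM in ctrl and 196 ± 48.6 CPM in FL1 mice in diestrus (SD, n = 5). The lines thus stood in opposite order at the stages, with log2 fold changes (FL1 against ctrl) of −0.27 in estrus and 0.71 in diestrus (SE 0.30 and 0.22, edgeR-adjusted p = 0.847 and 0.458). The mice overlapped at both stages, from 54.9 to 258 CPM in estrus and from 86.5 to 275 CPM in diestrus. The line by stage interaction missed the adjustment (log2 0.96, SE 0.39, unadjusted p = 0.0199, adjusted p = 0.988 from edgeR).

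Ptges3, on chromosome 10 (128058954 to 128077272), codes for a cytosolic prostaglandin E synthase that also serves as a cochaperone of HSP90. It varied little, between 55.8 and 150.2 CPM over all mice, with line differences of 0.29 in estrus and 0.32 in diestrus (log2, edgeR-adjusted p = 0.694 and 1.00). A processed pseudogene, Ptges3-ps, matches the end of its transcript, but only 3 reads in all were counted on that copy.

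Slco2a1, the prostaglandin transporter on chromosome 9 (102988712 to 103096002), was low, from 0 to 27.3 CPM. Its mean was 12.96 ± 9.66 CPM in ctrl and 4.92 ± 4.36 CPM in FL1 mice in estrus, and 7.13 ± 3.22 and 6.82 ± 4.25 CPM in diestrus (SD, n = 5). The log2 fold change in estrus was −1.40 with a standard error of 0.92 (edgeR-adjusted p = 0.652), within the spread between the mice.

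Hpgd, on chromosome 8 (56294585 to 56321043), had the widest line difference of the 10 genes over both stages. Ctrl mice held 70.1, 73.0, 126, 134 and 146 CPM in estrus and 58.3, 159.8, 161, 260.4 and 155 CPM in diestrus. FL1 mice held 24.2, 7.36, 24.3, 69.2 and 12.5 CPM in estrus and 42.6, 77.4, 26.7, 42.1 and 76.1 CPM in diestrus. In estrus the highest FL1 mouse (69.2 CPM) lay just under the lowest ctrl mouse (70.1 CPM), an order that was lost with RLE size factors, and in diestrus ctrl replicate 1 lay among the FL1 mice. The mean in estrus was 27.5 ± 24.4 CPM in FL1 and 109.8 ± 35.6 CPM in ctrl mice (SD, n = 5), 3.99-fold lower (log2 fold change −1.996, SE 0.45, edgeR-adjusted p = 0.0424). In diestrus it was 53.0 ± 22.6 against 159 ± 71.5 CPM (SD, n = 5), with a log2 fold change of −1.57 (SE 0.35, edgeR-adjusted p = 0.0950), which missed the threshold.

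The estrus call of Hpgd was kept in 2 of the 10 fits without 1 mouse, those without ctrl replicate 1 or FL1 replicate 4. Without any other mouse the adjusted p from edgeR was between 0.0509 and 0.120. With all 10 mice and robust estimation it was 0.111. FL1 replicate 4 was the mouse with 69.2 CPM, and without it the log2 fold change was −2.68 (edgeR-adjusted p = 0.00116). In diestrus Hpgd passed without ctrl replicate 1, with a log2 fold change of −1.80 (edgeR-adjusted p = 0.0152). Gm45540, a gene model without known function, lies in an intron of Hpgd on the same strand and held 0 to 337 counts per mouse. With its reads added to Hpgd, an alternative chosen after seeing the data, the difference in diestrus was −1.67 on the log2 scale (edgeR-adjusted p = 0.0369).

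Ptgr1, the reductase of the next step of inactivation on chromosome 4 (58965439 to 58987119), showed no called difference. Its group means lay between 33.7 and 44.0 CPM, and its line differences were 0.0357 in estrus and 0.23 in diestrus (log2, SE 0.29 and 0.33, edgeR-adjusted p = 0.991 and 1.00). Hpgd and Ptgr1 had a Pearson correlation of 0.31 over the 20 mice once the group means were removed.

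Ephx2, the soluble epoxide hydrolase on chromosome 14 (66084374 to 66124500), fell from estrus to diestrus in FL1 mice. FL1 mice held 433, 641, 591, 584 and 447 CPM in estrus and 326, 196, 143, 65.3 and 142 CPM in diestrus, with no overlap. Ctrl mice held 427, 377, 269.6, 290.0 and 644 CPM in estrus and 286, 321, 754, 582 and 210.3 CPM in diestrus, and the stages overlapped. The mean in FL1 mice was 539 ± 93.4 CPM in estrus and 174 ± 96.6 CPM in diestrus (SD, n = 5), 3.09-fold lower (log2 fold change −1.63, SE 0.32, edgeR-adjusted p = 0.0455). In ctrl mice the change was 0.0948 on the log2 scale (SE 0.32, edgeR-adjusted p = 0.961). The difference between these changes, which is the line by stage interaction, was −1.73 (SE 0.48, unadjusted p = 0.00118), but its adjusted p was 0.933 in edgeR. Without the filter on low counts it was −1.74 and called (edgeR-adjusted p = 0.0439), as were 6 of 26886 genes. The call in FL1 mice was kept only without diestrus replicate 1 (adjusted p = 0.00203), while it was between 0.0504 and 0.140 without any other of the 10 mice (edgeR). With the replicate number as a block the adjusted p was 0.0511 in edgeR. Set against ctrl in diestrus, the log2 difference of FL1 mice for Ephx2 was −1.30 (SE 0.39, edgeR-adjusted p = 0.417), and mice of the lines overlapped. This line difference in diestrus was called with DESeq2 on all samples (log2 −1.29, DESeq2-adjusted p = 0.0345). It was also called without the filter on low counts (log2 −1.31, edgeR-adjusted p = 0.00758), and in no other fit run.

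**Figure D3:**
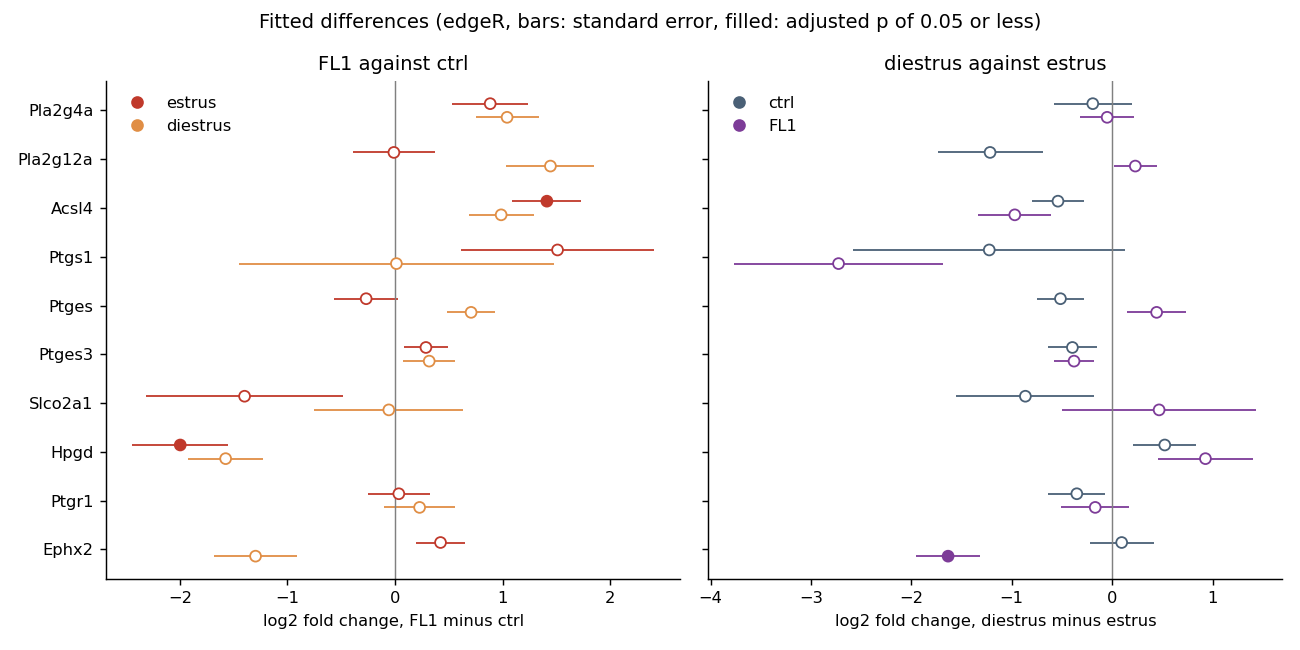
Log2 fold changes (x axes) of the 10 genes with standard errors (bars), FL1 against ctrl at each stage on the left and diestrus against estrus in each line on the right, filled where the adjusted p was 0.05 or less in edgeR. Acsl4 (1.41) and Hpgd (−1.996) in estrus and Ephx2 (−1.63) in FL1 mice are filled, and the estimates of Acsl4, Pla2g4a and Hpgd have the same sign at both stages.

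Counted by comparison, edgeR called 2 of the 10 genes for the line in estrus (Acsl4 and Hpgd), against 0.769% of 13007 genes tested, and 3 had an unadjusted p under 0.05, against 10.7%. In diestrus edgeR called 0 of 10, against 0.248% of 12886 genes, although 6 of 10 had an unadjusted p under 0.05, against 5.56%. These 6 were Pla2g4a, Pla2g12a, Acsl4, Ptges, Hpgd and Ephx2, and DESeq2 and limma-voom each called 1 of the 10, which was Hpgd with either tool. Over all genes with a p-value DESeq2 called 0.499% and limma-voom 0.217% there. The groups did not overlap for 3 genes in estrus (Pla2g4a, Acsl4 and Hpgd), against 3.55% of genes, and for 2 in diestrus (Pla2g12a and Acsl4), against 1.59%. Since the genes were chosen with earlier results of these data known, none of these shares is independent evidence.

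Between the stages edgeR called 0 of 10 genes in ctrl mice, against 1.36% of 12850 genes, and 3 had an unadjusted p under 0.05 (Pla2g12a, Acsl4 and Ptges, all lower in diestrus), against 11.8%. DESeq2 and limma-voom also called 0 of the 10, against 2.28% and 1.6% of all genes. In FL1 mice edgeR called 1 of 10 (Ephx2), against 0.221% of 13114 genes, and 3 had an unadjusted p under 0.05 (Acsl4, Ptgs1 and Ephx2), against 9.48%. No gene of the 10 was free of overlap in ctrl mice, against 3.66% of genes, and Ptgs1 and Ephx2 were in FL1 mice, against 2.42%. Over both lines edgeR called 0 of 10 for the stage, against 3.17% of 14938 genes, and 5 had an unadjusted p under 0.05 (Acsl4, Ptgs1, Ptges3, Hpgd and Ephx2), against 14.6%. DESeq2 called 1 of the 10 there (Acsl4), against 3.52% of all genes, and limma-voom 2 (Acsl4 and Hpgd), against 5.27%.

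For the line by stage interaction edgeR called 0 of 10 and 0.0% of 14938 genes, and DESeq2 and limma-voom called 0 of 10, against 0.00383% and 0.0% of all genes. An unadjusted p under 0.05 was found for 3 of 10 (Pla2g12a, Ptges and Ephx2), against 4.75% of all genes. The comparisons share mice, since each group enters a line fit and a stage fit and all 20 enter the joint fits, so their results are not independent of each other. The median log2 fold change of the 10 genes was 0.16 for the line in estrus, 0.27 for the line in diestrus, −0.46 for the stage in ctrl and −0.11 for the stage in FL1 mice, while the medians over all genes lay between 0.00409 and 0.0118.

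The pathway around these genes was read from a further list of 81 genes, of which 79 were found and 37 to 45 passed the filter in a fit. For the line in estrus 2 of 41 were called, against 0.769% of all genes tested, and 9 of 41 had an unadjusted p under 0.05, against 10.7%. Akr1c18 rose from 115.1 ± 61.3 CPM in ctrl to 1868 ± 1257 CPM in FL1 mice (log2 fold change 4.02, SE 0.50, edgeR-adjusted p = 3.06e-04). It codes for a hydroxysteroid dehydrogenase that is best known for inactivating progesterone, although it stands in the group for inactivation and export. Lta4h, which makes leukotriene B from leukotriene A, fell from 229 ± 42.8 CPM in ctrl to 99.5 ± 41.5 CPM in FL1 mice (SD, n = 5, log2 fold change −1.20, SE 0.26, edgeR-adjusted p = 0.0357). Over both stages 2 of 45 were called, against 1.21% of all genes, and 8 of 45 had an unadjusted p under 0.05, against 11.0%. The called genes were Akr1c18 (log2 fold change 2.83, SE 0.50, adjusted p = 0.00164) and Ptgfr (1.96, SE 0.39, adjusted p = 0.00573, both from edgeR). In the other 5 comparisons edgeR called 0 of the pathway genes tested. An unadjusted p under 0.05 was found for 4 of 37 in the line in diestrus (5.56% of all genes) and for 4 of 45 in the interaction (4.75%). For the stage it was found for 3 of 40 in ctrl mice (11.8% of all genes), 5 of 42 in FL1 mice (9.48%) and 6 of 45 over both lines (14.6%), shares close to or under those of all genes.

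For the line over both stages, where 1.21% of all genes were called, the called pathway genes stood among 8 genes of inactivation and export (Akr1c18) and 4 receptors (Ptgfr). At that share no call is the usual outcome for lists of this size, so the 17 genes of release and reacylation, the 6 of prostanoid synthesis, the 5 of the lipoxygenase branch and the 5 of the epoxygenase branch, with 0 called, are not set apart by it. The median log2 fold change of the 45 pathway genes was 0.32, against 0.0108 over all genes tested.

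Among the receptors, Ptgfr binds prostaglandin F. It reached 124 ± 35.3 CPM in FL1 and 32.9 ± 23.9 CPM in ctrl mice in estrus (SD, n = 5), with the lowest FL1 mouse at 96.7 and the highest ctrl mouse at 62.3 CPM. In diestrus it was 112.6 ± 112.04 CPM in FL1 mice, from 29.99 to 300.1 CPM, against 28.1 ± 10.3 CPM in ctrl mice. Ptger2, the receptor for prostaglandin E that raises cAMP in GCs, lay between 12.8 and 21.3 CPM in the group means, with a line difference of 0.30 over both stages (log2, SE 0.36, edgeR-adjusted p = 0.868). Ptger4 was at 1.42 to 2.92 CPM (line difference 0.41, SE 1.07, edgeR-adjusted p = 0.956).

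**Figure D4:**
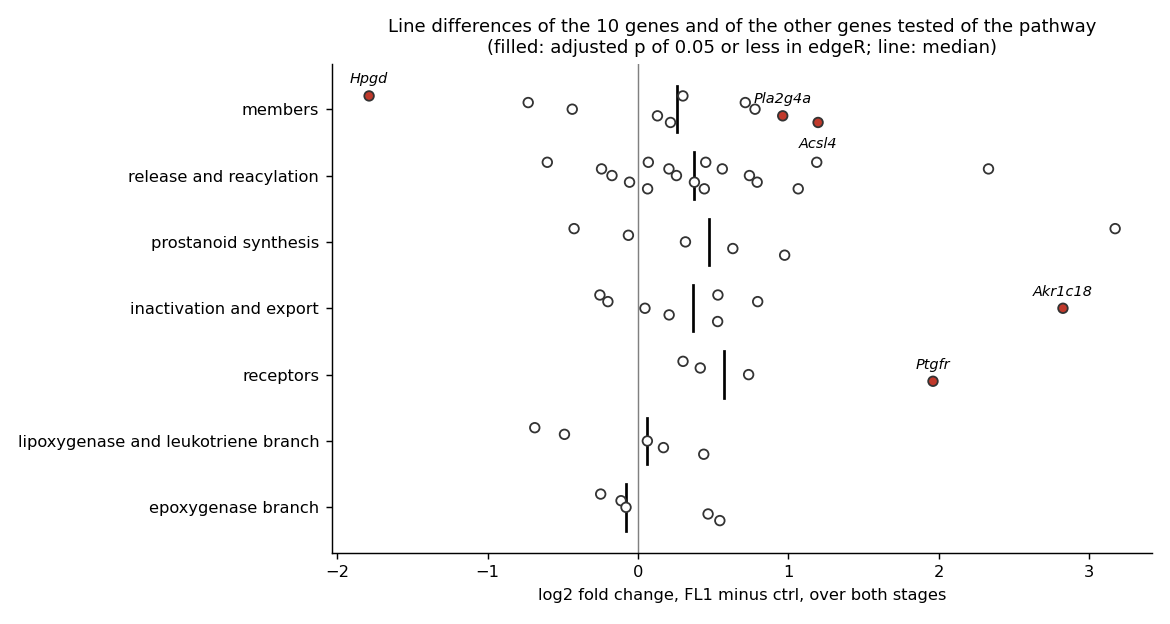
Log2 fold change for the line over both stages (x axis) of the 10 genes (top) and of the 45 other pathway genes tested, by step, filled and named where the adjusted p was 0.05 or less in edgeR, with the median of each row as a line. Akr1c18 (2.83) and Ptgfr (1.96) are the called genes outside the 10.

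The labelled cell type was checked with 10 markers of GCs, all of which were detected in every group, with summed medians of 9921 to 13790 CPM. The 4 luteal markers Akr1c18, Lhcgr, Star and Ptgfr, of which Akr1c18 and Ptgfr are also pathway genes above, were all detected and summed to 144 to 553 CPM in ctrl and 1587 to 4832 CPM in FL1 mice in estrus, and to 201 to 462 CPM and 434 to 1841 CPM in diestrus. Star was called at both stages (adjusted p = 0.0106 in estrus and 0.00899 in diestrus) and Lhcgr in estrus (adjusted p = 0.0327, all from edgeR). Over both stages 3 of 4 luteal markers were called for the line (Akr1c18, Ptgfr and Star), against 1.21% of all genes, with a median log2 fold change of 2.06. All 4 also occur, as stronger in FL1 mice, in gene lists that the study drew from these same samples. Their calls here are therefore not independent evidence. The 8 macrophage markers were all detected and summed to 19.1 to 47.0 CPM in ctrl and 52.7 to 113.6 CPM in FL1 mice in estrus, and to 8.92 to 20.1 CPM and 14.9 to 70.9 CPM in diestrus. Over both stages 1 of these 8 was called for the line (Lyz2, edgeR-adjusted p = 0.00226), against 1.21% of all genes. Of the macrophage markers 8 of 8 had higher estimates in FL1 mice, and their median log2 fold change was 1.57. Of the GC markers 1 of 10 was called for the line over both stages (Cyp11a1, higher in FL1 mice, edgeR-adjusted p = 0.0107), against the same 1.21%. For the stage over both lines 4 of 10 GC markers were called, against 3.17% of all genes. Fshr, Cyp19a1 and Inhba were higher and Cyp11a1 was lower in diestrus, besides Cyp17a1 of the theca list (higher) and Star (lower). No marker of the other 5 lists was called in any fit. The 6 markers of other leukocytes summed to at most 14.7 CPM in any mouse, and Cd79a was at 0 in all groups. Mean sums in estrus, for ctrl and FL1 mice, were 61.3 and 93.2 CPM for the 8 endothelial markers, 337 and 498 CPM for the 6 of platelets and red cells, 1190.0 and 1449 CPM for the 7 of fibroblasts and smooth muscle, 153 and 256 CPM for the 7 of oocyte and cumulus, and 687 and 728 CPM for the 4 of theca. In diestrus they were 31.4 and 75.5, 175 and 610, 619 and 932, 151 and 249, and 504 and 735 CPM in the same order. The theca sums were mostly Aldh1a1, with means of 405 CPM in ctrl and 682 CPM in FL1 mice in diestrus. There Thbd was also higher in FL1 mice (3.56 and 7.92 CPM), Cyp17a1 was lower (95.4 and 45.3 CPM), and Insl3 was at 0 in 3 of the 4 groups. The sums of platelets and red cells were mostly Hbb-bs, with 127 and 506 CPM in diestrus. The platelet markers Pf4 (2.46 and 0.855 CPM), Ppbp (0.881 and 0 CPM) and Itga2b (0.879 and 0.784 CPM) were lower in FL1 mice there. The part of the cells marked by these lists in the line differences of Acsl4, Pla2g4a and Hpgd, and in the stage difference of Ephx2, was not tested.

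**Figure D5:**
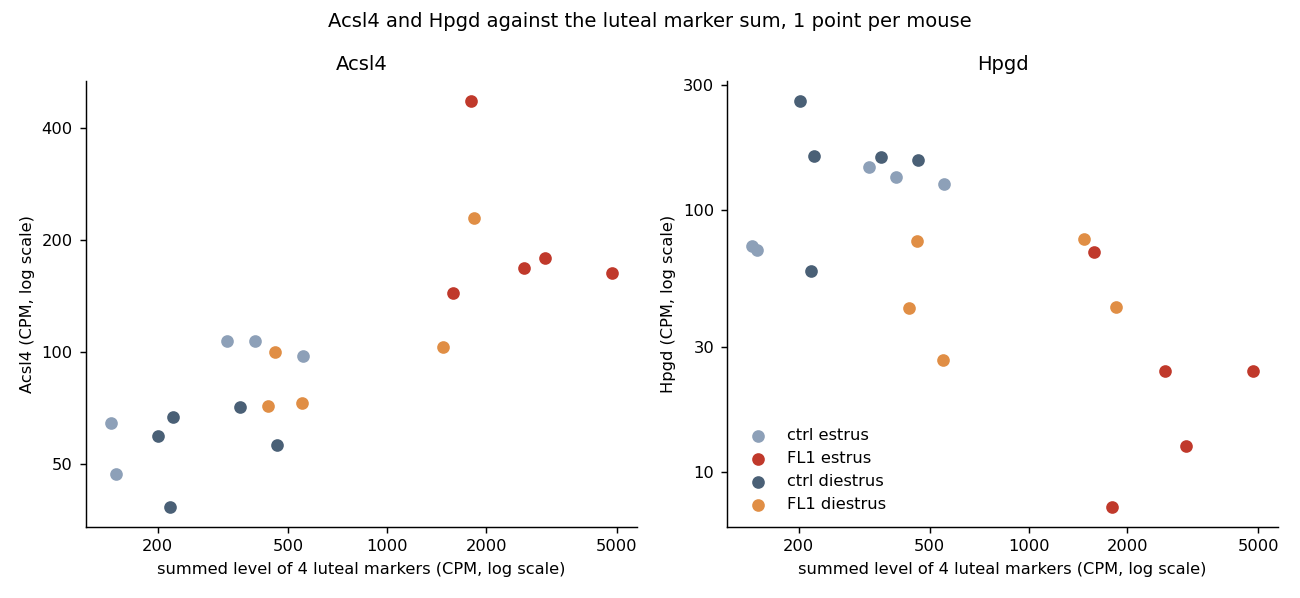
Level of Acsl4 (left) and Hpgd (right) in each mouse (y axes, CPM, log scale) against the sum of the 4 luteal markers (x axes, CPM, log scale), coloured by line and stage. The 5 FL1 mice in estrus have sums of 1587 to 4832 CPM, above all ctrl mice, and in diestrus FL1 replicates 1 and 2 have 1841 and 1473 CPM.

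The mouse with the highest Acsl4 level, FL1 estrus replicate 2, also held the highest levels of Cyp11a1 (6194 CPM) and Lhcgr (414 CPM) of all 20 mice, but not the highest luteal sum (1796 CPM). The genes whose log2 CPM followed Acsl4 most closely over the 20 mice, of 14937 compared, were Gm2a (Pearson r = 0.96, Spearman rho = 0.93), Cyp11a1 (0.94 and 0.92) and Epdr1 (0.93 and 0.91). Without the 2 mice farthest from the median r was 0.89 to 0.93, and with the group means removed it was 0.86 to 0.91, so the likeness also held among mice of a group. For Hpgd they were Neu3 (r = 0.87), Mlf1 (0.85) and Ctc1 (0.83), with 0.55 to 0.79 once the group means were removed. For Ephx2 they were Nif3l1 (0.79), Cox14 (0.79) and Tmem29 (0.75), with 0.69 to 0.77. These genes were taken for their likeness from all genes and share libraries and groups, so the values are a description.

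Among the 10 genes themselves, the pair most alike within groups was Acsl4 and Ptgs1 (r = 0.73 over 20 mice with group means removed), and the most opposed pair was Acsl4 and Ptges (r = −0.56). These are the extremes of all pairs, and Ptgs1 had no read in 4 of 20 mice. FL1 estrus replicate 2 had the highest Acsl4 (471 CPM), the highest Ptgs1 (22.1 CPM) and the lowest Ptges (54.9 CPM) of all mice. The correlations without it were not computed. Acsl4 and Pla2g4a, both higher in FL1 mice, had an r of 0.0775 within groups and of 0.47 with the groups left in. Acsl4 and Hpgd had −0.0564 within groups and −0.66 with the groups left in.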

How the data were processed

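The authors deposited raw counts of reads per Ensembl gene for each of the 20 mice. Per the paper's methods, QuantSeq 3′ libraries were trimmed and aligned with STAR to GRCm38 (Ensembl release 95). The strand setting of the counting is not given in the sources used here, and the labels and the paper name different means of RNA extraction. Reads on genes made up 48.9% to 58.4% of all reads in the files. Symbols and positions came from GENCODE M21 (55227 of 55487 identifiers found), promoters from RefSeq, and near-identical copies from BLAST 2.17.0 on the last 500 nt of transcripts (at least 90% identity over 100 nt).

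Samples were grouped by the labels. Lines and stages were compared with edgeR 4.0.16 in R 4.3.3 (TMM, filter with a minimum count of 10, minimum total of 15 and minimum share of 0.7, quasi-likelihood F test without robust estimation, Benjamini-Hochberg over all genes tested, threshold 0.05). All 10 genes passed the filter in all 7 fits. Alternatives were DESeq2 1.42.0, limma-voom (limma 3.58.1), RLE size factors, other filters, robust estimation, a joint fit, the replicate block and each mouse left out. The fits were tested on simulated data. CPM uses TMM factors of all 20 mice, and log2 CPM a prior count of 2. Near-identical replicates were looked for, and no 2 files held the same counts. The mean correlation of a library with its group was 0.83 to 0.87.

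The 10 genes and the lists were chosen with earlier results of these data known. Named besides the 10 are pathway genes that were called, Ptgs2, Ptgfr, Ptger2 and Ptger4, and the 3 genes most like each gene called in a fit of 10 mice. Gm45540 and the marker genes given with values fall outside this rule and were picked with their values in view.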

Additional observations from a re-analysis of the deposited data

Results flagged for a closer look

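The level of 1 mouse lay far from the other 4 of its group in 4 of the 40 combinations of gene and group, where chance alone gives about 1 in 20, that is 2. For Pla2g4a it was ctrl estrus replicate 2 with 8.84 CPM, the nearest mouse being at 45.1 CPM. For Acsl4 it was FL1 estrus replicate 2 with 471 CPM (nearest 178 CPM) and FL1 diestrus replicate 1 with 228 CPM (nearest 103.02 CPM). For Hpgd it was FL1 estrus replicate 4 with 69.2 CPM (nearest 24.3 CPM). Both FL1 mice high in Acsl4 were also high in Cyp11a1, with 6194 and 1767 CPM, the highest of their groups.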

How the results depend on the processing

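With 5 mice per group the calls within a stage or line lay close to the threshold, as the adjusted p-values without 1 mouse show. Standard errors were widest for Ptgs1 and Slco2a1, with mean levels of 4.47 and 7.96 CPM over all mice.

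For the line in estrus, edgeR called 2 of the 10 genes, and 0 with robust estimation (adjusted p = 0.0710 for Acsl4 and 0.111 for Hpgd), 1 with the replicate block (adjusted p = 0.120 for Acsl4), and 0 to 2 without 1 mouse. For the line in diestrus the count of 0 became 1 with DESeq2, with limma-voom and with Hpgd and Gm45540 pooled (Hpgd each time), and 1 with DESeq2 on all samples (Ephx2). It became 3 without the filter on low counts (Pla2g12a, Hpgd and Ephx2), and 0 to 1 without 1 mouse. For the stage in FL1 mice the count of 1 became 2 without the filter, 0 with the replicate block, and 0 to 2 without 1 mouse. For the stage over both lines the count of 0 became 1 with DESeq2, 2 with limma-voom, 1 without the filter, and 0 to 1 without 1 mouse. For the interaction it became 1 without the filter (Ephx2). For the line over both stages it was 2 to 3 without 1 mouse, and Acsl4, Pla2g4a and Hpgd were called in every other fit run. The cause of these changes was not tested.

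The replicate numbers do not pair the mice: deviations of same-numbered mice correlated between −0.116 and 0.117. With the replicate block the genes called among all genes were 58 in estrus (main 100), 13 in diestrus (32), 158 and 28 between the stages in ctrl and FL1 mice (175 and 29), 136 for the line over both stages (181) and 422 for the stage over both lines (473).

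Over all genes DESeq2 called 425 for the line in estrus, 118 in diestrus, 526 and 265 for the stage in ctrl and FL1 mice, 438 for the line over both stages, 873 for the stage over both lines and 1 for the interaction. Without the filter edgeR called 373 for the line in estrus, 55 higher and 52 lower in diestrus, and 348, 299, 319, 617 and 6 for the others in the same order. For the stage in FL1 mice limma-voom called 130, DESeq2 on all samples 230 and the joint fit 65, limma-voom called 286 for the line and 787 for the stage in the joint comparisons, and DESeq2 on all samples called 299, 99 and 444 for the line in estrus, in diestrus and the stage in ctrl mice. Without FL1 diestrus replicate 1, edgeR called 178 for the stage in FL1 mice (main 29) and 728 for the stage over both lines (main 473). Without FL1 diestrus replicate 3 it called 13 and 364.

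Directions turned only for differences that were small and not called (at most 0.23 on the log2 scale, or 0.44 when a mouse was left out). With limma-voom, Pla2g12a (0.31) and Ptgr1 (−0.0104) turned for the line in estrus, Ptgs1 (−1.14) and Ptgr1 (−0.0843) for the line in diestrus, Pla2g4a (0.14) for the stage in ctrl mice, Ptgr1 (−0.0511) for the line over both stages, Pla2g4a (0.0118), Ptges (8.30e-04) and Slco2a1 (0.13) for the stage over both lines, and Pla2g4a (−0.19), Ptges3 (−0.0228) and Ptgr1 (−0.0682) for the interaction. Pla2g12a in estrus also turned with DESeq2 on all samples (0.0108), without the filter (0.00586), with the filter on the mean count (0.00486) and with the replicate block (0.23), Ptgs1 in diestrus without the filter (−0.00554) and with the replicate block (−0.75), and Pla2g4a in the interaction with the replicate block (−0.0371).

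Without 1 mouse, log2 fold changes for the line in estrus ranged from −0.27 to 0.25 for Pla2g12a and from −0.10 to 0.19 for Ptgr1, and for the line in diestrus from −0.0717 to 0.40 for Ptgr1, −0.61 to 0.36 for Ptgs1 and −0.32 to 0.18 for Slco2a1. For the line over both stages Ptgr1 ranged from −0.0174 to 0.21. For the stage Ephx2 ranged from −0.21 to 0.33 in ctrl mice, and in FL1 mice Pla2g4a from −0.25 to 0.14 and Ptgr1 from −0.48 to 0.0030. Over both lines Ptges ranged from −0.17 to 0.0911 and Slco2a1 from −0.39 to 0.0481. For the interaction Acsl4 ranged from −0.84 to 0.0297, Pla2g4a from −0.0530 to 0.40, Ptges3 from −0.0941 to 0.18 and Ptgr1 from −0.12 to 0.35.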
